A study of Danio rerio with 3 samples.

Results

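The 50 features described here, of 31903 in the deposited matrices, are zebrafish genes of the DNA replication machinery. They were chosen by symbol alone: the prefixes mcm, orc, gins, rfc, prim, pola, pold, rpa and rrm followed by a number, pole, and the names cdc6, cdc45, cdt1, pcna and tyms. Lymphocytes were sorted from lck:GFP zebrafish, in which green fluorescent protein (GFP) is made under the promoter of lck, a kinase gene of T cells, and their RNA was counted in droplets. The groups were thymus cells bright for GFP, scale cells dim for GFP and kidney marrow cells dim for GFP, with 1 library each. Age, sex and the number of fish are not given in the labels. Since no group has a second library, differences could not be tested and counts past a fold are given instead: tissue, library and, for the thymus, sort gate cannot be told apart, and neither can counting software and tissue for the marrow.

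Replication starts where the origin recognition complex binds DNA and Cdc6 and Cdt1 load the ring-shaped MCM helicase. Cdc45 and the GINS complex activate the helicase, and polymerase alpha with primase starts each strand. Polymerases delta and epsilon extend the strand together with the sliding clamp PCNA, and RPA covers single-stranded DNA. Ribonucleotide reductase and thymidylate synthase supply the nucleotides, and many of these genes are transcribed mainly in cells that enter and pass S phase. In the thymus, T cell precursors multiply before and after rearranging their receptor genes with the recombinase Rag1, and most then rest as cells with both coreceptors, CD4 and CD8.

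Levels are unique molecular identifiers (UMIs) summed over cells per 1000000 UMIs (CPM) after each cell was thinned at random to 1000 UMIs, with shallower cells left out. This kept 3230 of 4574 thymus cells, 339 of 375 scale cells and all 983 marrow cells, whose median totals before thinning were 1993, 3321 and 4044 UMIs. Intervals are exact 95% intervals for counting error only, Poisson for levels, Clopper-Pearson for shares and conditional binomial for ratios. The thinning was repeated in 20 further random draws, and member ratios were taken again for some comparisons. Their range stands beside a ratio of a single member where the draw used lay outside it or over 1.5 times from its median. Member ratios that were not taken again are named below. The thymus library held 4426 CPM of rag1, against 0 in scale (at most 8.85 CPM) and 1.02 in marrow. A list of 11 genes taken as T cell markers summed to 8476, 1578 and 2010 CPM in thymus, scale and marrow. Within it cd3eap, at 21.1, 44.2 and 34.6 CPM, ran the other way, as did cd247l and il7r. Whether cd3eap marks T cells was not tested, and its values are not read as T cell content. Markers of cells other than T cells were present. Keratinocyte genes stood at 43.7, 386 and 0 CPM in thymus, scale and marrow, and red cell genes at 706, 5.90 and 7043 CPM. In the same order, neutrophil genes stood at 0, 0 and 1585 CPM and B cell genes at 0.929, 0 and 415 CPM. NK or cytotoxic genes stood at 52.0, 670 and 1450 CPM, of which the granzyme gene gzmk alone had 48.6 CPM in the thymus. The part of these markers in the results between libraries was not tested. No barcode was shared between the called cells of any 2 libraries. Scrublet called 0 doublets among 4574 thymus and 983 marrow barcodes, so doublets are not controlled there.

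As a sum, the replication genes were highest in the thymus. The sum of all 50 features was 2232 CPM for thymus cells (2181 to 2284), 566 CPM for scale cells (489 to 652) and 379 CPM for marrow cells (342 to 420). The thymus level was 5.88 times that of marrow (5.30 to 6.55) and 3.94 times that of scale (3.41 to 4.57), and the 20 further draws gave 5.28 to 6.19 and 3.54 to 4.32. In sparse counts only 29 members reached 50 UMIs over the 3 libraries. At least 1 member UMI was found in 62.0% of thymus cells, 31.0% of scale cells and 24.0% of marrow cells, and at least 5 in 14.6% (13.4 to 15.8%), 2.36% (1.02 to 4.6%) and 1.42% (0.781 to 2.38%). Free RNA carried member UMIs too: marrow barcodes under 100 UMIs held 533 CPM (510 to 556) without thinning, where called marrow cells held 790 CPM. In marrow, 3 of 13 cells with at least 10% haemoglobin UMIs (median total 7088 UMIs) had a member UMI, or 23.1%, close to the share of all marrow cells. In the thymus, 4 of 6 cells with at least 10% haemoglobin UMIs had a member UMI (833 CPM, 271 to 1945; median total 1392 UMIs), and none had more than 2. A share of cells with 1 member UMI is therefore not read as expression, and cells with at least 5 are counted below.

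Of the 29 members measured between thymus and marrow (at least 50 UMIs in both together), 26 were at least 2-fold higher in the thymus and 0 at least 2-fold lower, where 34.3% of 6014 features measured were higher and 6.6% lower. Their median log2 ratio was 2.44, against 0.65 over all features measured. Between thymus and scale, 20 of 28 were at least 2-fold higher, where 29.2% of 5608 features were, and 0 were at least 2-fold lower, where 9.91% were. There the median log2 ratio was 1.63, against 0.42. The minimum of 50 UMIs favours genes high in the thymus, which had 3230 thinned cells beside 983 in marrow and 339 in scale. tyms, for example, was measured against scale on 67 thymus and 0 scale UMIs. A member lower in the thymus could go unmeasured, so the 0 lower members are not read as a result. The shares of all features passed the same minimum. Over the 20 further draws, with 28 to 30 members measured, 25 to 28 were at least 2-fold higher against marrow and 17 to 26 against scale. Restricted to cells with 1000 to 3000 UMIs, the summed log2 ratio was 1.87 against marrow and 1.08 against scale. Fewer members were measured there: 11 of 15 were at least 2-fold higher than in marrow and 9 of 16 than in scale. The share of all features was not taken for these cells.

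**Figure D1:**
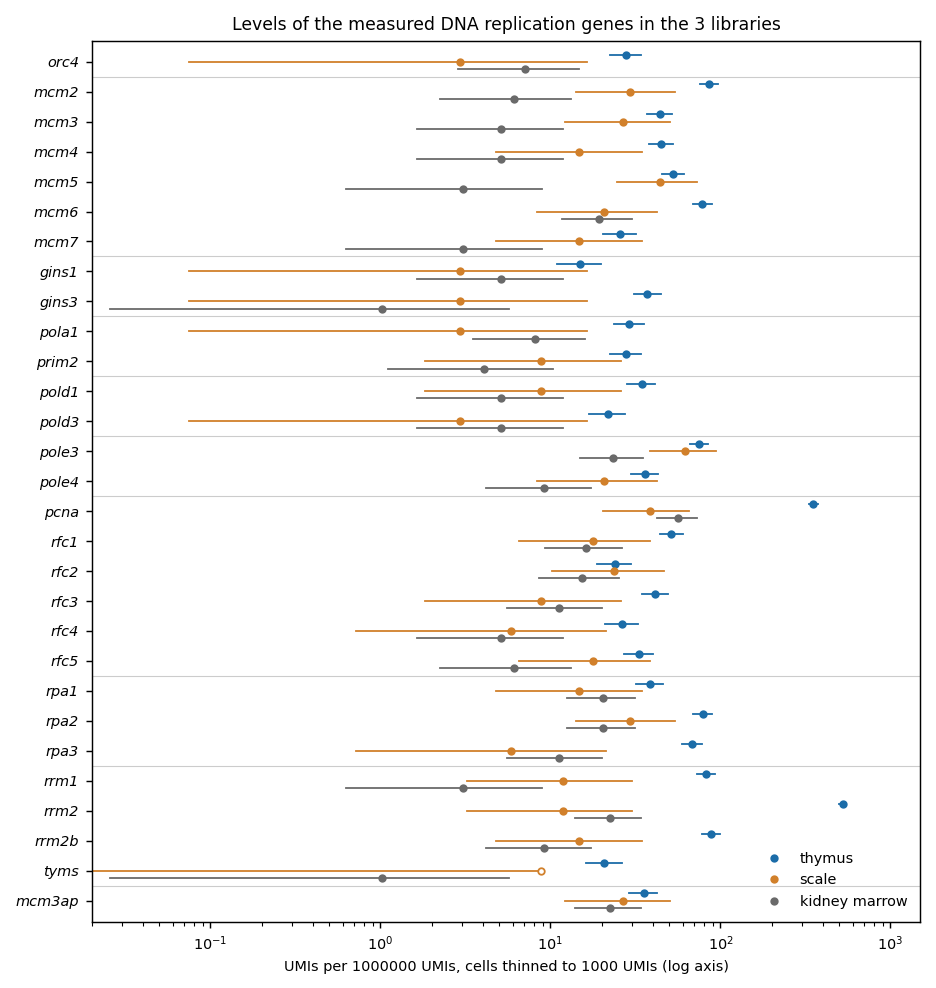
Levels of the 29 measured members in the thymus (blue), scale (orange) and kidney marrow (grey) library, as UMIs per 1000000 on a log axis, with lines for exact Poisson 95% intervals of counting error. Members are grouped by role from orc4 at the top; the open circle for tyms in scale stands at the limit that a count of 0 allows. rrm2 and pcna stand apart in the thymus at 524 and 352 CPM, while rfc2, pole3, mcm5 and mcm3ap lie close in thymus and scale in the draw plotted.

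The nucleotide supply genes differed most between the thymus and the other libraries. Summed, they had 716 CPM in the thymus, 38.3 CPM in scale and 35.6 CPM in marrow, so the thymus was 20.1-fold above marrow (14.4 to 28.9) and 18.7-fold above scale (10.9 to 35.1). rrm2, the small subunit of ribonucleotide reductase made in S phase, had 524 CPM in the thymus, 11.8 CPM in scale and 22.4 CPM in marrow. Its ratio was 44.4 over scale (17.3 to 163) and 23.4 over marrow (15.4 to 37.4), and over the 20 further draws at least 28.8 and 16.1. A further feature named rrm2 had 4 UMIs in the thymus and 0 elsewhere, and reads shared between these copies could not be assigned with certainty. rrm1, the large subunit, had 82.7, 11.8 and 3.05 CPM in thymus, scale and marrow, and was 27.1-fold higher in thymus than in marrow (9.17 to 132; 5.67 to 39.1 over the further draws, with a median of 9.36). tyms, thymidylate synthase, had 20.7 CPM in the thymus, 0 in scale and 1.02 CPM in marrow, and was at least 2.34-fold higher in thymus than in scale, taking 3 counts for the scale library, and 2.41 to 9.66-fold over the further draws. rrm2b, which in mammals encodes the small subunit that serves DNA repair and mitochondrial DNA outside S phase, had 87.9, 14.7 and 9.16 CPM and was 9.60-fold above marrow (4.99 to 21.2). The thymus was thus the highest library for each of the 4 genes.

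The MCM helicase showed a second pattern, with scale between thymus and marrow. Its 6 subunits, mcm2 to mcm7, summed to 331 CPM in the thymus, 150 CPM in scale and 41.7 CPM in marrow. mcm5 had 52.6 CPM in the thymus, 44.2 CPM in scale and 3.05 CPM in marrow, so thymus and scale did not differ beyond counting error (ratio 1.19, 0.701 to 2.17), while the thymus was 17.2-fold above marrow (5.80 to 84.5). The further draws gave a smaller ratio over marrow, 5.01 to 10.5. Its thymus-to-scale ratio stayed between 1.07 and 1.94 over the 20 further draws. mcm2 had 85.4, 29.5 and 6.10 CPM, mcm3 44.0, 26.5 and 5.09 CPM, and mcm4 44.9, 14.7 and 5.09 CPM in thymus, scale and marrow. For each of these 3 the thymus was highest and marrow lowest. mcm7, with 25.7, 14.7 and 3.05 CPM, kept that order, though on 5 scale and 3 marrow UMIs, and with all UMIs it had 13.3 CPM in scale and 11.6 CPM in marrow. mcm6, with 78.3, 20.6 and 19.3 CPM, had scale and marrow nearly level.

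As a sum, the clamp and loader genes were highest in the thymus, and pcna gave the largest part. This gene, whose product is the sliding clamp, had 352 CPM in the thymus, 38.3 CPM in scale and 56.0 CPM in marrow, and its thymus level was 9.17-fold that of scale (5.34 to 17.3) and 6.29-fold that of marrow (4.79 to 8.40). The loader subunits were less unequal. rfc2 had 23.8 CPM in the thymus, 23.6 CPM in scale and 15.3 CPM in marrow, in the draw used the smallest ratio of the measured members over marrow (1.56, 0.891 to 2.93) and over scale (1.01, 0.488 to 2.42). rfc1, the large subunit, had 51.4, 17.7 and 16.3 CPM, and its ratio over marrow was 3.16 (1.89 to 5.65). rfc3, rfc4 and rfc5 ranged from 26.3 to 41.5 CPM in the thymus, from 5.90 to 17.7 CPM in scale and from 5.09 to 11.2 CPM in marrow. The thymus value was the highest of the 3 libraries for all of them in the draw used.

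Among the RPA subunits, rpa3 had 68.4 CPM in the thymus, 5.90 CPM in scale and 11.2 CPM in marrow and was 11.6-fold above scale (3.17 to 96.4; 3.80 to 24.3 over the further draws). rpa2 had 78.6, 29.5 and 20.3 CPM. rpa1, the large DNA-binding subunit, had 38.4, 14.7 and 20.3 CPM, and its ratio over marrow, was 1.89 (1.17 to 3.20). For polymerase epsilon, pole3 and pole4 encode small histone-fold subunits: pole3 had 74.9 CPM in the thymus, 61.9 CPM in scale and 23.4 CPM in marrow, with a thymus-to-scale ratio of 1.21 (0.774 to 1.99), and pole4 had 35.9, 20.6 and 9.16 CPM. pole3 thus sat nearly level in thymus and scale in the draw used, and over the further draws its ratio ran from 1.45 to 3.73. For polymerase delta, pold1, the catalytic subunit, had 34.4, 8.85 and 5.09 CPM, and pold3 had 21.7, 2.95 and 5.09 CPM. pola1, the catalytic subunit of polymerase alpha, had 29.1, 2.95 and 8.14 CPM, 9.87-fold higher in thymus than in scale (1.73 to 394) on 1 scale UMI. No further draw reached that ratio, and they gave 1.25 to 8.71. prim2, the large primase subunit, had 27.9, 8.85 and 4.07 CPM.

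The genes that act before synthesis were the sparsest. orc4 was the only one of 6 origin recognition genes to reach 50 UMIs, with 27.9 CPM in the thymus, 2.95 CPM in scale and 7.12 CPM in marrow, a thymus-to-scale ratio of 9.45 (1.65 to 377; 1.55 to 9.45 over the further draws, with a median of 2.92). Both licensing genes stayed under 50 UMIs: cdc6 had 10.2 CPM and cdt1 4.64 CPM in the thymus, with 0 UMIs of either in scale and 1 of each in marrow. Of the helicase activators, gins3 had 37.2, 2.95 and 1.02 CPM in thymus, scale and marrow, and its ratio over marrow, 36.5 (6.43 to 1454), rests on 1 marrow UMI. The further draws gave 10.0 to 34.1 for gins3, with a median of 17.2, and for rrm2 a median of 24.6. gins1 had 14.9, 2.95 and 5.09 CPM, and cdc45, gins2, gins4 and mcm10 had 3.72 to 11.8 CPM in the thymus and too few UMIs to compare. The unmeasured members orc1, orc2, orc3, orc5, orc6, pola2, prim1, pold2, pole and pole2 had 12 to 34 UMIs in the thymus, 0 to 5 in scale and 1 to 12 in marrow. In thymus, scale and marrow, pole had 8.67, 14.7 and 12.2 CPM and orc5 8.67, 14.7 and 9.16 CPM. orc1 had 3.72, 8.85 and 3.05 CPM, and gins4 9.29, 11.8 and 3.05 CPM. For these the thymus was not the highest library, on at most 5 scale UMIs each and with overlapping intervals. The other members named in this list were highest in the thymus in the draw used.

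Some features carry the prefix without the role. mcm3ap, whose product works in mRNA export, had 35.3 CPM in the thymus, 26.5 CPM in scale and 22.4 CPM in marrow, with ratios of 1.33 over scale (0.676 to 2.98) and 1.58 over marrow (0.993 to 2.62). The further draws were mostly higher, at 1.30 to 5.25 over scale, where 16 of 20 were at least 2-fold, and 1.47 to 3.46 over marrow, where 15 were. mcm8 and mcm9, helicases of DNA repair, had 3 and 8 thymus UMIs. mcm6l, a near copy that now bears the symbol of mcm6, had 1 UMI and mcm3l had 0, so reads of these pairs may be split between copies and are uncertain. The feature si:dkey-28b4.7, whose current symbol is pold4, is not matched by the rule and had 37.5 CPM in the thymus, 64.9 CPM in scale and 38.7 CPM in marrow.

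Replication genes outside the set were, as a sum, also highest in the thymus. A list of 35 such genes, 33 of them matched, summed to 1511 CPM in the thymus, 186 CPM in scale and 236 CPM in marrow, and scale and marrow did not differ beyond counting error (ratio 0.787, 0.586 to 1.04). Its largest entry in the thymus was top2a, at 245, 0 and 23.4 CPM. Both top2a and ccna2 (67.2, 5.90 and 8.14 CPM) were counted here and not in the G2 and mitosis list below. lig1, a DNA ligase, had 69.3, 2.95 and 17.3 CPM and nasp, a histone chaperone, 107, 38.3 and 22.4 CPM, while timeless, a fork protection gene, was highest in scale at 26.0, 29.5 and 19.3 CPM. Of 21 measured, 19 were at least 2-fold higher in thymus than in marrow, where 34.3% of all features measured were. Against scale 19 were, where 29.2% of all features were. A list of 20 genes of G2 phase and mitosis, among them mki67, cdk1, plk1 and cenpf, summed to 1750, 44.2 and 144 CPM. Of these, 17 of 17 measured were at least 2-fold higher in the thymus in both comparisons, beside the same shares of all features. mki67 alone, a marker of cycling cells, had 476, 17.7 and 19.3 CPM.

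Between scale and marrow, the MCM genes were higher in scale with and without thinning. The MCM2 to MCM7 sum was 3.61-fold higher in scale (2.34 to 5.58; 2.08 to 4.46 over the 20 further draws), and 1.86-fold higher (1.60 to 2.15) when all UMIs of all cells were used, at 208 against 112 CPM. The richest cell held 11.8% of the scale UMIs and 14.6% of the marrow UMIs of these genes after thinning. Nucleotide supply genes stood at 38.3 CPM in scale and 35.6 CPM in marrow after thinning (ratio 1.08, 0.523 to 2.09), but at 51.6 and 135 CPM with all UMIs, where they were lower in scale (0.381, 0.291 to 0.491). Clamp and loader genes stood at 112 and 110 CPM after thinning (1.02, 0.686 to 1.49) and at 154 and 223 CPM with all UMIs (0.69, 0.59 to 0.804). Polymerase epsilon genes were 2.08-fold higher in scale in the draw used (1.29 to 3.32), but 0.782 to 2.16-fold over the further draws. The G2 and mitosis list was lower in scale, at 44.2 CPM against 144 CPM (ratio 0.306, 0.167 to 0.523). pcna, the only member with 50 UMIs in both together, had a ratio of 0.685 (0.343 to 1.27; 0.555 to 1.74 over the further draws) and did not pass 2-fold in either direction, where 10.8% of 2139 features were higher in scale and 3.6% lower.

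The direction of the full sum between scale and marrow depended on the thinning. It was 1.49-fold higher in scale after thinning (1.25 to 1.78; 1.31 to 1.74 over the further draws) and 0.831-fold (0.771 to 0.896), that is lower in scale, when all UMIs were used, at 657 CPM in scale and 790 CPM in marrow. A few cells carried the marrow UMIs. In marrow, 25 cells with at least 20 member UMIs, with a median total of 23714 UMIs, held 68.5% of the 3940 member UMIs, and in scale 10 such cells, with a median of 6818 UMIs, held 38.6% of 840. With these cells left out the sums were 426 CPM in scale and 285 CPM in marrow, a ratio of 1.5 (1.35 to 1.66), and the MCM ratio was 3.09 (2.43 to 3.93). The marrow value of 285 CPM is under the 533 CPM of the marrow's free RNA, both taken without thinning. The cells were left out by the same member UMIs that were then summed. Cells with more UMIs reach that cutoff more readily. The ratios without these cells are therefore a description and do not settle the direction between scale and marrow.

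The cells rich in member UMIs differed between the 2 tissues. These cells were picked by their member UMIs, so their values are a description. In the 10 scale cells, MCM2 to MCM7 made up 41.4% of member UMIs, nucleotide supply 10.2% and clamp and loader 18.8%, while in the 25 marrow cells they made up 15, 22.1 and 28.3%. The 542 such thymus cells had 15.6, 31.2 and 25.8%, so the makeup in marrow lay nearer the thymus than that in scale did. mki67 was found in 1 of 10 scale cells and 19 of 25 marrow cells, unthinned and with median totals of 6818 and 23714 UMIs. Summed over these cells, the G2 and mitosis list stood at 656 and 2571 CPM, against 4188 CPM in the thymus cells. Its median per cell was 0, 1417 and 3149 CPM in the scale, marrow and thymus cells. The T cell receptor gene trbc1 was found in all 10 scale cells and in 14 of 25 marrow cells, the cytokine receptor gene il2rb in 7 and 2, and rag1 in 0 of either.

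Within the thymus, cells were grouped by whether rag1, the coreceptor gene cd4-1 and the coreceptor gene cd8b each had at least 1 UMI among the 1000 kept. The replication genes were highest in cells with neither coreceptor: 3981 CPM (3804 to 4165) in 475 rag1+ cells and 3339 CPM (3181 to 3503) in 501 rag1- cells. They were lower in rag1- cells with cd8b only, at 2779 CPM (2491 to 3091), in rag1+ cells with cd8b only, at 2129 CPM (2004 to 2259), and in rag1+ cells with cd4-1 only, at 2040 CPM (1881 to 2210). The lowest values were in rag1- cells with both coreceptors, at 1157 CPM (881 to 1492), rag1- cells with cd4-1 only, at 920 CPM (760 to 1104), and rag1+ cells with both, called double-positive, at 1253 CPM (1189 to 1319). The cells with cd8b only and cd4-1 only among rag1+ cells did not differ beyond counting error, nor did the groups with both coreceptors. Since a gene with few UMIs can be missed among 1000, a cell of a coreceptor-negative group is one in which no UMI was seen, not one shown to lack the gene.

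Repeated thinning kept the 2 coreceptor-negative groups above the double-positive group, and moved the small groups. Over the 20 further draws, with groups set anew each time, rag1+ coreceptor-negative cells ranged from 3360 to 4162 CPM, rag1- coreceptor-negative cells from 2903 to 3375 CPM, and rag1+ double-positive cells from 1180 to 1319 CPM. The rag1- cells with cd4-1 only, 118 to 140 cells, ranged from 1008 to 1762 CPM, all above the value in the draw used. Their place below the double-positive cells therefore does not hold. The rag1- cells with cd8b only, 100 to 137 cells, ranged from 2008 to 3289 CPM.

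**Figure D2:**
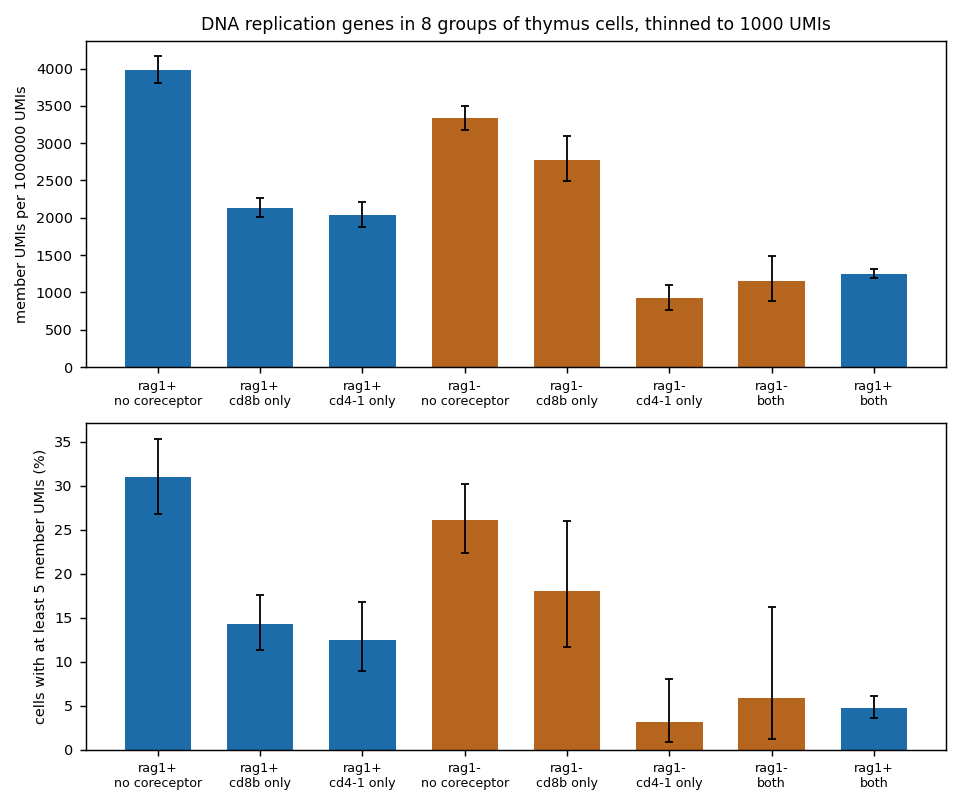
Summed level of the 50 members in UMIs per 1000000 (top) and share of cells with at least 5 member UMIs (bottom) in 8 groups of thymus cells by rag1 (blue, rag1+; brown, rag1-) and by cd4-1 and cd8b. Bars start at 0, lines are exact 95% intervals of counting error, and the rag1+ cells with both coreceptors stand at the right. The 2 groups with no coreceptor stand highest in both panels, at 3981 and 3339 CPM and at 30.9 and 26.1% of cells.

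Shares of cells followed the sums, except between the groups with both coreceptors. Cells with at least 5 member UMIs made up 5.88% of rag1- cells with both (1.23 to 16.2%, 3 of 51 cells). They made up 18.0% of rag1- cells with cd8b only and 3.2% of rag1- cells with cd4-1 only. At least 5 member UMIs were found in 30.9% of rag1+ coreceptor-negative cells (26.8 to 35.3%), 26.1% of rag1- coreceptor-negative cells (22.4 to 30.2%), 14.3% of rag1+ cells with cd8b only, 12.5% of rag1+ cells with cd4-1 only and 4.71% of rag1+ double-positive cells (3.56 to 6.10%). Member UMIs were unevenly spread over cells: the tenth of cells with most member UMIs held 38.3% of them among rag1+ coreceptor-negative cells and 48.3% among rag1+ double-positive cells. Markers of other cells moved with these groups. Red cell genes stood at 2655 CPM in rag1- coreceptor-negative cells and 33.7 CPM in rag1+ coreceptor-negative cells, against 235 CPM in rag1+ double-positive cells. In the same order, NK or cytotoxic genes stood at 138, 88.4 and 9.59 CPM, macrophage genes at 57.9, 33.7 and 1.74 CPM, keratinocyte genes at 122, 40 and 25.3 CPM, and the T cell list at 3196, 3914 and 12638 CPM. Among all the groups, macrophage genes were highest in rag1- cells with cd8b only, at 131 CPM. Red cell genes stood at 1178 CPM in rag1+ cells with cd8b only and at 131 CPM in rag1+ cells with cd4-1 only. Over all thymus cells the NK or cytotoxic list was nearly all gzmk, a granzyme gene, with 48.6 of 52.0 CPM, and 6 of its 9 genes had 0 UMIs. It is not read as a mark of NK cells in the thymus. The part of these markers in the result was not tested.

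Set against rag1+ double-positive cells, rag1+ coreceptor-negative cells had 3.18 times their summed level (2.97 to 3.41; log2 1.67, and 1.37 to 1.80 over the further draws). Of 17 members measured, 12 were at least 2-fold higher and 0 at least 2-fold lower, where 7.49% of 3283 features measured were higher and 11.1% lower, and the median log2 ratio was 1.81 against -0.16 over all features. mcm3 had 105 CPM in coreceptor-negative cells and 13.1 CPM in double-positive cells, a ratio of 8.05 (4.45 to 15.4), the largest of the 17. That value was high for this draw: the further draws gave 2.80 to 5.94. rrm1 had 173 and 33.1 CPM (5.21), mcm4 103 and 20.1 CPM (5.14), mcm5 88.4 and 17.4 CPM (5.07), and pcna 646 and 145 CPM (4.47, 3.69 to 5.43). The 4 kept ratios of at least 3.05 in all 20 further draws. rrm2 had 1078 and 262 CPM (4.11, 3.56 to 4.75). The 12 genes were mcm2, mcm3, mcm4, mcm5, mcm6, pcna, rfc3, rpa1, rpa2, rpa3, rrm1 and rrm2. With 16 to 19 members measured, the further draws gave 10 to 14 at least 2-fold higher and 0 to 2 at least 2-fold lower. rpa1 was at least 2-fold higher in 15 of the 20, and rrm2b was at or below a ratio of 0.5 in 12.

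A smaller set was level or lower in the coreceptor-negative cells. rrm2b had 73.7 CPM in rag1+ coreceptor-negative cells and 120 CPM in rag1+ double-positive cells, a ratio of 0.612 (0.410 to 0.893; 0.343 to 0.606 over the further draws). mcm3ap had 25.3 and 39.2 CPM (0.644, 0.310 to 1.24), pole3 71.6 and 73.2 CPM (0.977, 0.636 to 1.47), rfc1 71.6 and 55.8 CPM (1.28, 0.820 to 1.97; 0.588 to 1.27 over the further draws), and pold1 46.3 and 31.4 CPM (1.48, 0.827 to 2.58). The last 4 did not differ beyond counting error. Thus the small subunit genes of ribonucleotide reductase took opposite directions between the same groups, rrm2 higher and rrm2b lower in coreceptor-negative cells.

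**Figure D3:**
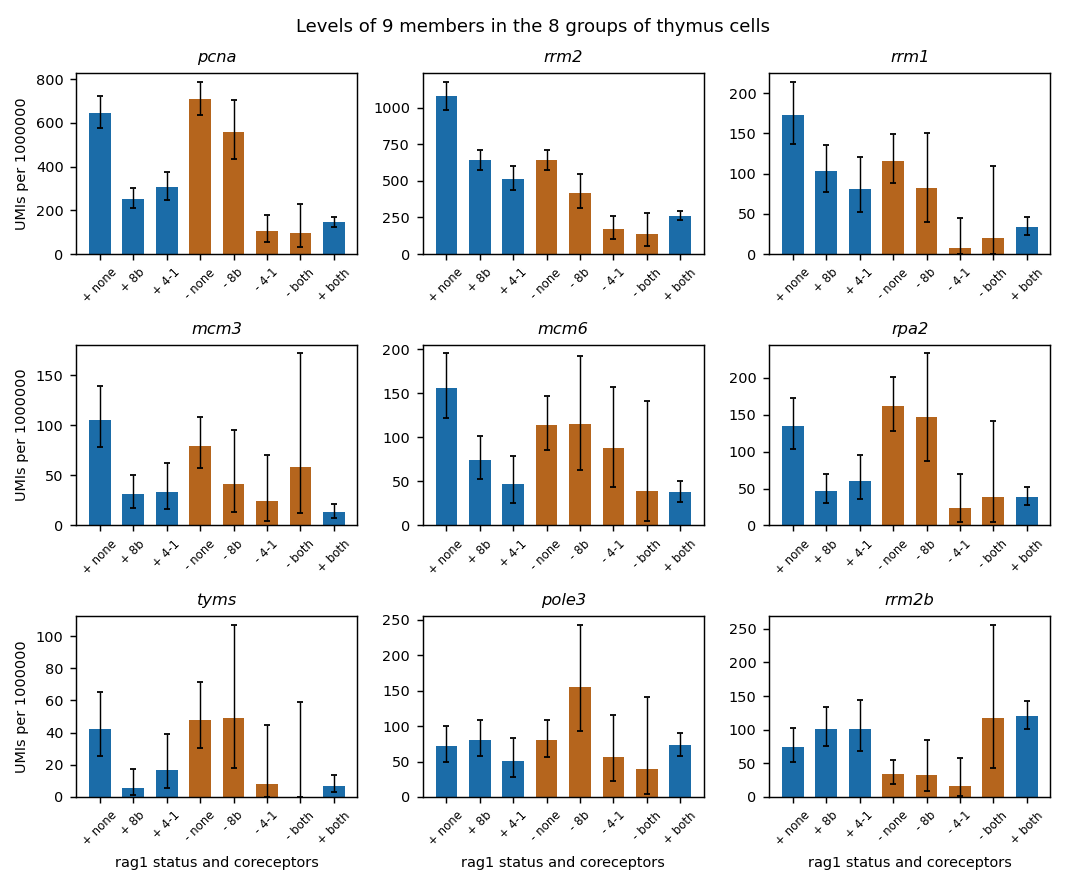
Levels of 9 members, in UMIs per 1000000, in the 8 groups of thymus cells (blue, rag1+; brown, rag1-; none, 8b, 4-1 and both give the coreceptor UMIs found), with exact Poisson 95% intervals. pcna, rrm2, rrm1, mcm3, mcm6 and rpa2 stand highest in a group with no coreceptor, tyms and pole3 in rag1- cells with cd8b only, while rrm2b stands at 120 CPM in rag1+ cells with both coreceptors and at 33.9 CPM in rag1- cells with none.

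The rag1- coreceptor-negative cells had 2.67 times the level of rag1+ double-positive cells (2.48 to 2.86; log2 1.41, and 1.23 to 1.48 over the further draws). Of 19 members measured, 14 were at least 2-fold higher, where 8.53% of 3316 features were, and 1 at least 2-fold lower, where 16.2% were. With 15 to 19 measured, the further draws gave 11 to 14 higher and 1 to 2 lower. mcm3 had 79.8 CPM against 13.1 CPM in double-positive cells (6.11, 3.30 to 11.9; 3.04 to 6.63 over the further draws), mcm5 95.8 against 17.4 CPM (5.49), pole4 83.8 against 16.6 CPM (5.06), pcna 711 against 145 CPM (4.91, 4.07 to 5.94) and rpa2 162 against 38.4 CPM (4.22). rrm2 had 639 against 262 CPM (2.43, 2.07 to 2.86). The lower member was rrm2b, with 33.9 against 120 CPM (0.282, 0.160 to 0.468), and the next were rfc1 (0.537; 0.445 to 1.12 over the further draws), mcm3ap (0.712), pold1 (1.02) and pole3 (1.09). The rag1- and rag1+ coreceptor-negative cells share the double-positive cells as their comparison, so these ratios are not independent. The G2 and mitosis list, by contrast, stood at 1421 CPM in rag1- coreceptor-negative cells and 3444 CPM in rag1+ coreceptor-negative cells, against 1054 CPM in rag1+ double-positive cells.

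In the draw used, groups with a single coreceptor lay closer to the double-positive cells, rag1- cells with cd8b only excepted. That exception depends on the draw. Over the further draws, rag1- cells with cd8b only had a median of 2290 CPM (2008 to 3289) and rag1+ cells with cd8b only 2118 CPM (1890 to 2435). The medians were 1998 CPM in rag1+ cells with cd4-1 only and 1271 CPM in rag1+ double-positive cells. The ratios and counts in this paragraph were not taken again in those draws. In rag1+ cells with cd8b only the sum was 1.70 times that of rag1+ double-positive cells (1.57 to 1.84), and 2 of 13 members, rrm1 (3.13) and rrm2 (2.43), were at least 2-fold higher, where 1.95% of features were, and 0 lower, where 1.53% were. In rag1+ cells with cd4-1 only the ratio was 1.63 (1.48 to 1.79), and 2 of 11, rrm1 (2.44) and pcna (2.12), were at least 2-fold higher, where 2.3% were, and 0 lower, where 2.43% were. In rag1- cells with cd8b only the ratio was 2.22 (1.96 to 2.50), and 6 of 9 members were at least 2-fold higher, where 5.72% of features were: pcna (3.85), rpa2 (3.85), rpa3 (3.53), mcm6 (3.06), mcm2 (2.69) and pole3 (2.13). rrm2 in these cells, at 418 against 262 CPM, was 1.59-fold higher (1.16 to 2.15), and rrm2b was lower at 0.273 (0.0732 to 0.714), in the direction that 17.9% of features took by at least 2-fold. In rag1- cells with cd4-1 only, mcm6 was at least 2-fold higher (2.35, 1.09 to 4.63; 5.45% of features) and rrm2b at least 2-fold lower (0.133, 0.0159 to 0.490; 18.1% of features), of 8 members measured. In rag1- cells with both coreceptors, 0 of 6 members passed 2-fold in either direction, where 4.22% of features were higher and 15.2% lower.

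Split by rag1 alone, 2431 rag1+ cells had a summed level of 2067 CPM and 799 rag1- cells 2736 CPM, a ratio of 0.755 (0.718 to 0.795; log2 -0.40, and -0.52 to -0.26 over the further draws). Of 28 members measured, 1 was at least 2-fold higher in rag1+ cells, where 8.31% of 5247 features were, and 4 at least 2-fold lower, where 4.73% were. With 28 to 30 measured, the further draws gave 1 to 2 members higher and 0 to 7 lower. The median log2 ratio in the draw used was -0.55 over the members and 0.10 over all features. rrm2b had 105 CPM in rag1+ cells and 36.3 CPM in rag1- cells, a ratio of 2.89 (1.96 to 4.4; 2.33 to 4.71 over the further draws), the largest. rfc1 followed at 57.6 and 32.5 CPM (1.77, 1.16 to 2.80), but the further draws gave 0.894 to 1.90, so its direction depends on the draw. Next were mcm3ap (1.37), rfc4 (1.07, but 0.404 to 0.936 over the further draws) and rrm2, at 532 and 499 CPM (1.06, 0.95 to 1.19). The last 3 did not differ beyond counting error.

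The 4 lower members in rag1+ cells were tyms, at 14.8 and 38.8 CPM (0.382, 0.230 to 0.638), pole4 at 26.7 and 63.8 CPM (0.419), rpa2 at 61.7 and 130 CPM (0.474) and rfc2 at 18.9 and 38.8 CPM (0.488). These names depend on the draw: each was at or below a ratio of 0.5 in 4 to 9 of the 20 further draws, and the ratios of tyms, rpa2 and rfc2 were above 1 without thinning. The next was rpa3 at 55.5 and 108 CPM (0.516, 0.391 to 0.684), followed by pcna at 285 and 553 CPM (0.516, 0.457 to 0.583). Red cell genes differed between these cells too, at 381 CPM in rag1+ cells and 1695 CPM in rag1- cells, and their part in the result was not tested. The G2 and mitosis list ran the other way from the members, at 1887 CPM in rag1+ cells and 1334 CPM in rag1- cells (ratio 1.41, 1.32 to 1.51), and the list of other replication genes stood at 1399 and 1852 CPM (0.755, 0.711 to 0.804).

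The total UMIs of a cell before thinning moved with its member level and with its group. Thymus cells with 1000 to under 1500, 1500 to under 3000, 3000 to under 6000 and at least 6000 UMIs had member levels of 1026, 1095, 3238 and 5924 CPM after all were thinned to 1000, and mki67 at 107, 190, 900 and 1361 CPM. Median totals were 4573 UMIs in rag1+ coreceptor-negative cells, 3630 in rag1- coreceptor-negative cells and 1487 in rag1+ double-positive cells, and 1799 in rag1+ and 2753 in rag1- cells as a whole. The part of the total in the group differences was not tested beyond windows of it. Within windows of total UMIs the ratios were smaller, and some changed sign.

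For rag1+ coreceptor-negative over rag1+ double-positive cells, the median log2 ratio of the 20 further draws was 0.72, 0.76, 0.74 and 0.46 in the 4 windows, against 1.57 over all cells, and it was above 0 in all 20 draws in each window. In the draw used it was 0.047 among cells with at least 6000 UMIs. For rag1- coreceptor-negative over rag1+ double-positive cells the medians were -0.11, 0.27, -0.072 and 0.63, with 0, 19, 7 and 20 of 20 draws above 0. This ratio was thus above 0 in all further draws only in cells with at least 6000 UMIs, and in none below 1500 UMIs. The window from 6000 UMIs has no upper limit, so totals were not matched within it. In the draw used it held 36 rag1+ double-positive cells, beside 191 rag1+ and 174 rag1- coreceptor-negative cells. For rag1+ over rag1- cells the medians were 0.28, 0.14, 0.52 and -0.24, against -0.40 over all cells, with 20, 15, 20 and 0 of 20 draws above 0, so the direction turned in 2 of the 3 windows under 6000 UMIs and was mixed in the other. With no thinning at all it was 0.47, also turned, and the rag1- coreceptor-negative over rag1+ double-positive ratio was -0.14.

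**Figure D4:**
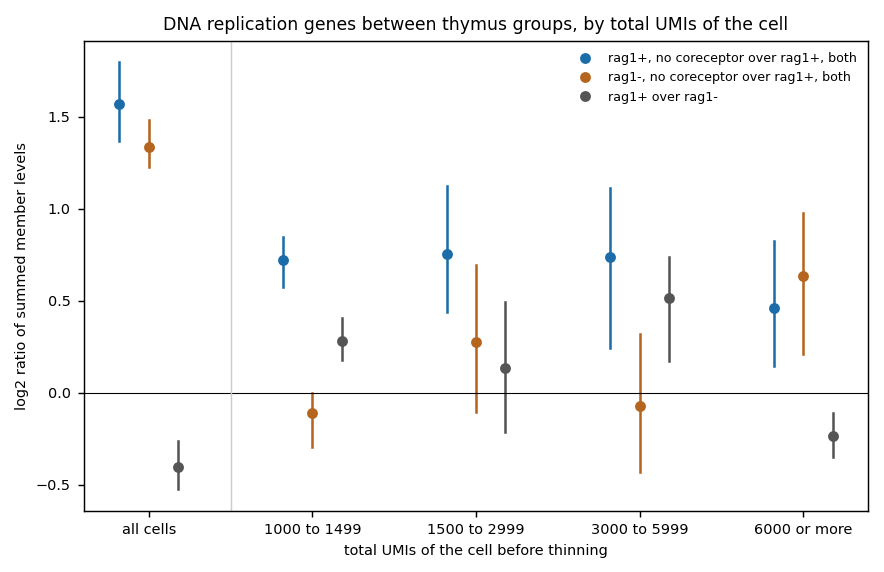
Log2 ratio of the summed member level for 3 comparisons of thymus groups (blue, rag1+ without coreceptor over rag1+ with both; brown, rag1- without coreceptor over rag1+ with both; grey, rag1+ over rag1-), in all cells and in 4 windows of total UMIs before thinning. Points are medians and lines the lowest and highest of 20 random draws of the thinning. The blue ratio lies above 0 throughout, with medians of 0.46 to 0.76 in the windows, whereas the grey ratio lies below 0 over all cells and at 6000 or more UMIs, and spans 0 from 1500 to under 3000 UMIs.

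Cell by cell in the thymus, member UMIs were concentrated and went with other cell cycle genes. Of 3230 cells, 1227 had 0 member UMIs, 855 had 1, 677 had 2 to 4, 262 had 5 to 9 and 209 had 10 to 26. Over these 5 classes rag1 had 4949, 4781, 4718, 2046 and 1943 CPM. The coreceptor gene cd4-1 had 1188, 1112, 920, 294 and 220 CPM, while for cd8b the levels were 1496, 1531, 1377, 637 and 402 CPM. Cells with 5 or more member UMIs thus had lower levels of the recombinase and of both coreceptors than cells with fewer, and their median totals before thinning were 6745 and 6929 UMIs, against 1587 to 1980 in the other classes. The list of other replication genes stood at 518, 582, 1434, 4340 and 7847 CPM. The G2 and mitosis list did not keep that order: it stood at 969, 1123, 2793, 4237 and 2407 CPM, with the highest value in cells with 5 to 9 member UMIs.

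The 2 programmes overlapped in part. At least 5 UMIs of both the members and the G2 and mitosis list were found in 151 cells, of the members only in 320 cells, of the G2 and mitosis list only in 279 cells, and of neither in 2480 cells. Thymus cells were then ordered, in the draw used only, by UMIs of the G2 and mitosis list, which shares no gene with the members. The summed members stood at 1508 CPM in 2098 cells with none, 3236 CPM in 702 cells with 1 to 4 and 4126 CPM in 430 cells with at least 5, whose median totals were 1768, 1833 and 6112 UMIs. Cells with at least 5 had 2.74 times the level of cells with none (2.58 to 2.90), and 7 of 27 members were at least 2-fold higher, where 8.38% of 4485 features were, and 1 at least 2-fold lower, where 17.6% were.

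Members differed from gene to gene along that order, in ratios that were not taken again in the further draws. rrm2 had 152, 820 and 1851 CPM in cells with 0, 1 to 4 and at least 5 G2 and mitosis UMIs, a ratio of 12.2 between the last and the first (10.7 to 13.9). rrm1 had 45.3, 107 and 226 CPM (4.98, 3.72 to 6.68). Both ribonucleotide reductase genes of S phase were highest in the cells with most UMIs of the G2 and mitosis list. Over all thymus cells mki67, a marker of cycling cells, gave 476 of the 1750 CPM of that list. pcna had 221, 628 and 537 CPM and rpa2 58.6, 128 and 95.3 CPM, with the highest value in the middle class, though the intervals of the last 2 classes overlapped for both. The MCM sum stood at 296, 368 and 440 CPM, and mcm6 was level at 79.6, 75.5 and 76.7 CPM (0.964, 0.643 to 1.41). gins3 (2.63), pcna (2.43), prim2 (2.24), pola1 (2.17) and mcm5 (2.05) were the other members at least 2-fold higher. pold1 was at least 2-fold lower, at 13.9 CPM in cells with at least 5 and 33.4 CPM in cells with none (0.418, 0.148 to 0.957), and rrm2b had 67.4 and 97.2 CPM (0.694, 0.453 to 1.03).

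**Figure D5:**
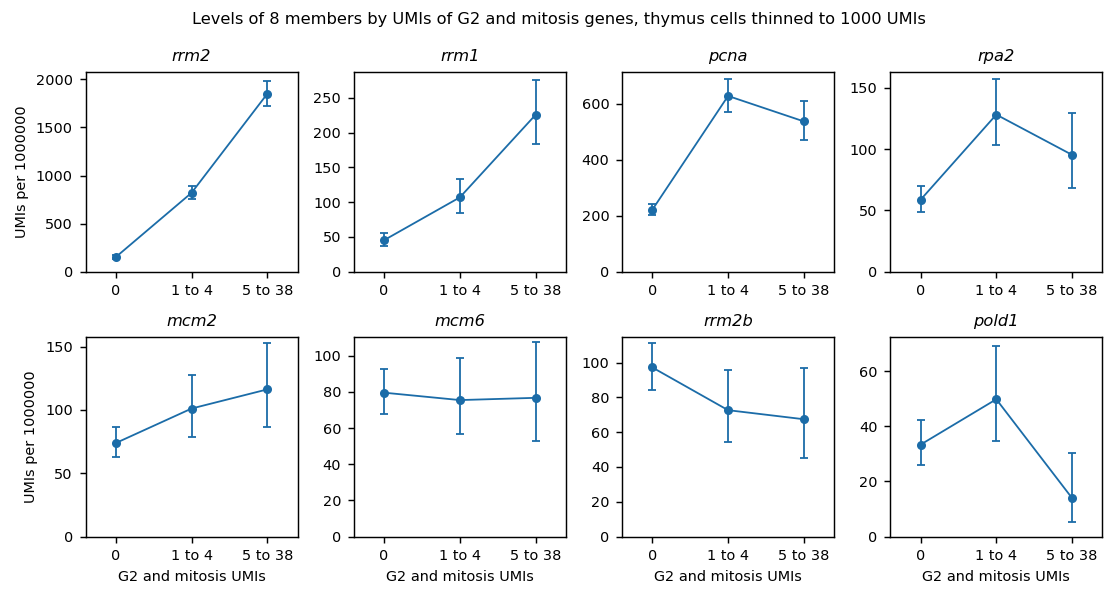
Levels of 8 members, in UMIs per 1000000, in thymus cells with 0, 1 to 4 and 5 to 38 UMIs of 20 G2 and mitosis genes after thinning, with exact Poisson 95% intervals; each panel has its own scale from 0. rrm2 and rrm1 climb through all 3 classes, pcna and rpa2 have their highest value in the middle class, mcm6 stays at 75.5 to 79.6 CPM, and rrm2b and pold1 are lowest in the last class.

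The members were related to each other to unequal degrees. Over 3230 thinned thymus cells, Pearson's r of log2 UMIs plus 1 between a member and the sum of the others was 0.59 for pcna, 0.44 for rrm2, 0.38 for rrm1, 0.37 for rpa2, 0.29 for rpa3 and 0.27 for mcm2. It was -0.035 for rrm2b, -0.023 for mcm3ap, 0.089 for pole3 and 0.097 for rfc1, although these 4 had 114 to 284 UMIs, as many as several members with higher values. These are descriptions of cells of 1 library that share its free RNA, and r depends on how many UMIs a gene has. With the G2 and mitosis list r was 0.50 for rrm2, 0.19 for rrm1 and 0.17 for pcna, and at most 0.092 for every other member.

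Outside the set, the 10 genes whose UMIs followed the summed members most closely over those cells, among 2021 with a UMI in at least 5% of them, were stmn1a (r = 0.64), DUT (0.53), tubb2b (0.49), hmgn2 (0.49), pclaf (0.49), hmgb2b (0.49), tuba8l4 (0.49), hmgb2a (0.46), h3f3b.1 (0.44) and h2afvb (0.43). stmn1a, which encodes a microtubule regulator, had 617 CPM in the thymus, 20.6 CPM in scale and 35.6 CPM in marrow, and DUT, the dUTPase that keeps uracil out of DNA, had 232, 5.90 and 30.5 CPM. pclaf encodes a PCNA-binding factor and had 220, 53.1 and 40.7 CPM. The lowest values were those of CR383676.1, whose current symbol is malat1 (-0.45), CR936442.1, an endogenous retrovirus named erv (-0.41), and btg1, an antiproliferative gene (-0.40). btg1 had 1933 CPM in rag1+ coreceptor-negative cells and 6241 CPM in rag1+ double-positive cells.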

How the data were processed

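Droplet RNA of sorted lck:GFP cells was counted in 3 libraries. The deposited matrices hold whole-number UMI counts that were not normalized. Cell Ranger 6.0.0 wrote those of thymus and scale, and Cell Ranger 4 that of marrow, per the file headers; the submitters' processing notes name Cell Ranger 6.0.0, Seurat 4.3.0 and GRCz11. Members and lists were chosen with earlier results of these data known.

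Barcodes were kept from 500 UMIs and 250 genes, with mitochondrial UMIs up to 10%. Marrow barcodes also needed 1394.89 UMIs, the percentile 99 of the 3000 largest totals divided by 10. Scrublet (scanpy 1.11.5, expected rate 0.05) called 0, 16 and 0 thymus, scale and marrow barcodes, and the calls were left out. This gave 4574 thymus, 375 scale and 983 marrow cells with 12405147, 1279044 and 4987653 UMIs. Cells were thinned to 1000 UMIs without replacement (numpy 2.4.6, seed 1). A status was positive from 1 UMI among these. Thinning was repeated with 20 further seeds, an alternative chosen after seeing the data, as were the windows of total UMIs.

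Ratios are of summed UMIs per 1000000. A ratio against 0 counts is a bound set at 3 counts of the library. A member was measured in a comparison with at least 50 UMIs in both groups together, and called at 2-fold. This minimum favours genes that are high in the group with more cells. Free RNA and PCR copies are not covered by the intervals. Named were the members of each role with 50 UMIs, the 5 members with the largest and the 5 with the smallest ratio per comparison, and the 10 most correlated genes. All 50 members were found in a table of current symbols, which matched 29177 of 31900 Ensembl features. Ratios and intervals were tested on simulated Poisson counts of genes. That simulation held no cells, thinning or setting of groups, so it does not cover the spread over draws. Promoters and proteins were not analysed here.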

Additional observations from a re-analysis of the deposited data

Results flagged for a closer look

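Member UMIs were also counted in barcodes that no comparison used, each set above what 0 counts would allow. Marrow barcodes from 500 UMIs up to the marrow minimum, 107 barcodes, held 696 CPM (534 to 893). Barcodes over the mitochondrial limit held 1945 CPM in the thymus (132 barcodes, 1705 to 2210), 194 CPM in scale (63 barcodes, 96.6 to 346) and 569 CPM in marrow (104 barcodes, 415 to 761). None of these was thinned. Without thinning, called cells held 3557 CPM in the thymus, 657 CPM in scale and 790 CPM in marrow, above each set of their library. For marrow barcodes under the minimum, however, the interval of 534 to 893 CPM includes the value of called cells.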

How the results depend on the processing

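Unless stated, values are log2 ratios of summed members for rag1+ coreceptor-negative over rag1+ double-positive cells (1.67 as reported), rag1- coreceptor-negative over the same cells (1.41), rag1+ over rag1- cells (-0.40), thymus over marrow (2.56), thymus over scale (1.98) and scale over marrow (0.58). No paired analysis was possible because each group is 1 library, and no library could be left out. The cause of each shift was not tested. Counts are given of the members measured, and the share of all features was not taken under the alternatives.

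Without thinning, scale over marrow was -0.27, rag1+ over rag1- 0.47 and rag1- coreceptor-negative over double-positive -0.14. The value for rag1+ coreceptor-negative over double-positive was 0.59, for thymus over marrow 2.17 and over scale 2.44. Of 47 members measured, 41 and 39 were then at least 2-fold higher in the thymus than in marrow and scale, and 6 of 47 in rag1+ cells. In windows of 1000 to under 1500, 1500 to under 3000, 3000 to under 6000 and at least 6000 UMIs, chosen after seeing the data, rag1+ over rag1- was 0.36, 0.078, 0.37 and -0.24, rag1- coreceptor-negative over double-positive -0.24, 0.53, 0.22 and 0.26, and rag1+ coreceptor-negative over double-positive 0.96, 0.98, 1.05 and 0.047. In cells with 1000 to 3000 UMIs, thinned anew, values were 0.58 for rag1+ and 0.31 for rag1- coreceptor-negative cells. They were 0.016 for rag1+ over rag1-, and 1.87 and 1.08 for thymus over marrow and scale. At least 2-fold higher were 2 of 5 members in rag1+ coreceptor-negative cells, and 11 of 15 and 9 of 16 in the thymus.

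Thinning to 500 UMIs gave 1.4 for rag1+ coreceptor-negative cells (6 of 9 members at least 2-fold higher) and 2.25 for thymus over marrow. In rag1+ cells, 0 of 25 members were higher. Thinning to 2000 UMIs gave 1.05 for rag1+ coreceptor-negative cells (19 of 26 members), 0.82 for rag1- coreceptor-negative cells and -0.0068 for rag1+ over rag1-. It gave 3.03 for thymus over marrow and 2.49 over scale, with 31 of 35 members higher than in scale. A random seed of 2 gave 1.53 and 1.30 for rag1+ and rag1- coreceptor-negative cells, and a mitochondrial limit of 5% gave 1.48 and 1.28. Leaving out the 5% of cells with most UMIs gave 1.46, 1.08 and, for rag1+ over rag1-, -0.27. Status by at least 2 UMIs gave 2.07 (5 of 7 members), 1.83 and -0.56. Relative to the median of all features the values were 1.83, 1.58, -0.50, and 1.91 and 1.56 for thymus over marrow and scale. Denominators without mitochondrial, ribosomal and haemoglobin genes gave 1.59 for rag1- coreceptor-negative cells, -0.53 for rag1+ over rag1- and 2.26 for thymus over marrow. Without mcm3ap, mcm8, mcm9, rrm2b, pole3 and pole4 the coreceptor-negative values were 1.91 and 1.63. A minimum of 20 or 100 UMIs gave 24 of 31 or 6 of 8 members higher in rag1+ coreceptor-negative cells. A fold of 1.5 gave 2 of 28 members higher in rag1+ cells.

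Of 854 values of single members under the alternatives, 647 stayed within their interval, 190 moved outside it and 17 changed direction. A change of direction was counted only for members at least 2-fold higher or lower as reported. Other sign changes stand among the 647 and 190 and are not named below. Without thinning, tyms (0.012), rpa2 (0.10) and rfc2 (0.40) turned between rag1+ and rag1- cells, and mcm6 (-0.20), rrm2 (-0.70), rpa1 (-0.078) and rrm1 (-0.41) in rag1- coreceptor-negative cells. With 1000 to 3000 UMIs, mcm7 turned against marrow (-0.17), prim2 (-1.12), pold3 (-0.29), rrm1 (-0.25), mcm4 (-0.48) and gins3 (-0.52) against scale, rfc2 between rag1+ and rag1- cells (0.32), mcm6 (-0.73) and mcm2 (-0.56) in rag1+ coreceptor-negative cells and rfc5 (-0.66) in rag1- coreceptor-negative cells. Values under about 10 UMIs in scale or marrow are limited by depth.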
